A study of Homo sapiens with 115 samples.

Results

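The cells described here were the newly budded progeny cells, stage [S], and the unirradiated cells, stage [N], of the p53-/- form of HCT116, a human colorectal cancer cell line. They were chosen by the genotype and the stage in their sample labels, which gave 9 [S] cells and 7 [N] cells. They are 16 of 43 p53-/- cells in a series that also holds 72 p53+/+ cells. These numbers follow the labels, and the text of the study divides the cells between the lines slightly differently, so the genotype of a few cells of the series is in doubt. Each library was made from 1 cell drawn into a pipette by hand, whose RNA was copied to full-length cDNA. The p53-/- cells were a clone made by homologous recombination, and the p53+/+ cells used below for comparison were another clone of the line. By the labels the [S] cells were taken on day 10 after 8 Gy, and the [N] cells carry day 0 and also 8 Gy, whereas the methods of the study describe [N] as untreated, which is how they are called here. Single clones stand for each genotype, and the labels name no separate cultures.

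After irradiation most HCT116 cells stop dividing, and some persist as giant cells with enlarged or multiple nuclei. Small daughter cells can bud off from such giant cells, and these are the [S] cells. The p53 protein is a transcription factor that DNA damage stabilises. It drives genes for cell cycle arrest, such as CDKN1A, and for cell death. Cells without it keep a weaker block of the cell cycle after radiation. The comparison of [S] with [N] in the p53-/- line therefore asks how progeny that emerged from irradiated cells without p53 differ in RNA from cells that were never irradiated.

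Because each stage of the line is 1 sample made of several picked cells, no test was made and the values below are descriptions. Counts were divided by the total of their cell and given per 1000000 counts (CPM). The difference of a gene is log2 of the median CPM over the [S] cells plus 1, minus the same over the [N] cells, and a gene is called past 2-fold at a difference of at least 1 or at most -1. A gene's cells do not overlap when every [S] cell lies above, or every [S] cell lies below, every [N] cell. Genes with a mean of at least 5 CPM over the 16 cells were measured, 10420 of 43386 entries.

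The libraries held 14470778 to 60732222 counts per [S] cell and 15784490 to 47271774 per [N] cell. A count of 0 allows up to 0.0494 to 0.207 CPM in an [S] cell and up to 0.0635 to 0.190 CPM in an [N] cell, by counting error alone. Between 14092 and 16675 genes had at least 1 count in an [N] cell, and between 8170 and 17245 in an [S] cell. Cells 1, 6, 8 and 9 of [S] had fewer than 12000 detected genes, although cells 8 and 9 held 54662117 and 43005714 counts. The [N] cells resembled each other with a Pearson correlation of log2(CPM + 1) across the measured genes of 0.82 to 0.94, the [S] cells with one of 0.48 to 0.88, and genes are not independent replicates. No cell was a copy of another. The cell titles begin with digits that cells share, called name prefixes here. The [N] cells have 2 prefixes, the [S] cells 7, and they share 0 of them, so stage and prefix cannot be told apart.

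**Figure D1:**
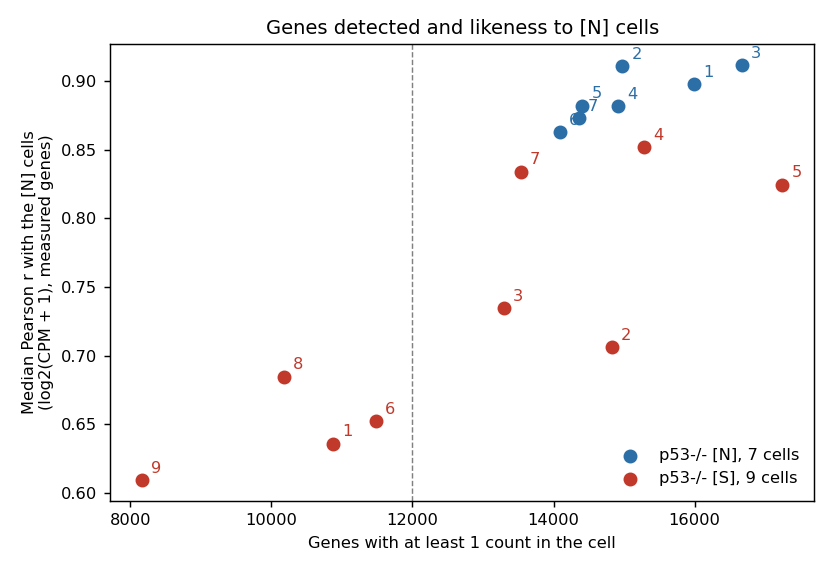
Genes with at least 1 count in each p53-/- cell (x axis) against the median Pearson correlation of that cell with the [N] cells (y axis), 1 numbered point per cell and a dashed line at 12000 genes. The [N] cells lie between 0.86 and 0.91, [S] cells 4, 5 and 7 lie between 0.82 and 0.85, and the other [S] cells lie between 0.61 and 0.73.

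The spread between cells was the first difference between the stages. The median SD of log2(CPM + 1) over cells was 1.51 in [S] and 0.55 in [N], and it was larger in [S] for 95.6% of the measured genes. The pairs of [S] cells with the same name prefix, cells 6 and 7 and cells 8 and 9, correlated at 0.61 and 0.55 in that order, within the range of [S] pairs with different prefixes. Cell 6 of the former pair and both cells of the latter had fewer than 12000 detected genes. Among the [N] cells, the 11 pairs with the same prefix had a median correlation of 0.91. The 10 [N] pairs with different prefixes had one of 0.86. Mitochondrial rRNA made up 11.6% of the counts of [S] cell 4 and 17.2% of those of [S] cell 5, against 0.537% to 4.01% in the other [S] cells and 0.675% to 3.14% in [N]. The part of detected genes, prefix and rRNA in the results below was not tested.

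Of the measured genes, 644 were higher past 2-fold in [S] (6.18%) and 1439 were lower (13.8%). The median difference over all measured genes was -0.21, and 38.1% of them were above 0. How the cells were summarised moved this split. With counts summed over the cells of a stage, 985 genes were higher and 705 lower, so that 58.3% of the genes past 2-fold were higher in place of 30.9%. With means of log2 values, 455 were higher and 2100 lower (17.8%). Without the 4 [S] cells under 12000 detected genes, 754 were higher and 1041 lower (42.0%), and the median difference was -0.12. Without [S] cell 6 the counts were 643 and 1374.

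In 6 entries (0.0576%) every [S] cell was higher than every [N] cell, and in 36 (0.345%) every [S] cell was lower. Without the 4 [S] cells with few detected genes the counts were 73 and 175, where fewer cells also make an overlap less frequent by construction, and without cell 6 they were 11 and 63. Leaving out 1 cell at a time, the higher count was 10 to 14 without any of [S] cells 2, 3, 6, 7, 8 and 9 or [N] cell 4 and 23 without [N] cell 1, and the lower count was 60 to 64 without [S] cell 3, 6 or 8.

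Among the entries that were higher in all [S] cells were IRAK1, ZNF385A and RELA. IRAK1 is the kinase that carries interleukin-1 and Toll-like receptor signals towards NF-kappaB. On chromosome X at 154010507 to 154019902 (GRCh38), it ranged from 53.5 to 128.7 CPM in [S] with a median of 73.2 CPM and from 10.5 to 41.3 CPM in [N] with a median of 29.9 CPM, a difference of 1.27. RELA encodes the p65 subunit of NF-kappaB. Its levels ran from 39.4 to 165 CPM in [S] with a median of 72.9 CPM and from 24 to 38.1 CPM in [N] with a median of 36.3 CPM, and its difference of 0.98 lay just under the 2-fold line. In the p53+/+ line the differences were 0.79 for IRAK1 and 0.54 for RELA. Both genes were thus higher in every p53-/- progeny cell than in any unirradiated cell, at a modest size.

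ZNF385A, a zinc finger protein known as a partner of p53, ranged from 35.1 to 164 CPM in [S] with a median of 64.6 CPM and from 14.5 to 30.2 CPM in [N] with a median of 27 CPM, a difference of 1.23 in cells that lack p53 and of 2.05 in the p53+/+ line.

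**Figure D2:**
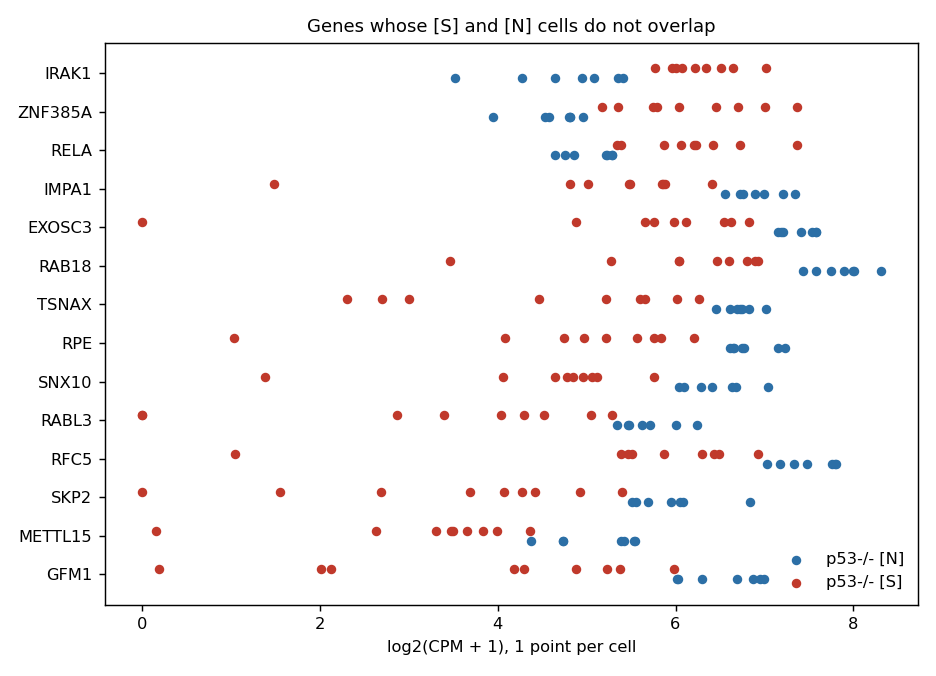
Level of 14 genes whose [S] and [N] cells do not overlap, as log2(CPM + 1) on the x axis, 1 point per p53-/- cell. The 3 genes at the top (IRAK1, ZNF385A, RELA) were higher in all 9 [S] cells, and the 11 genes under them were lower, with [S] cells spread down to 0 for SKP2, RABL3 and EXOSC3.

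Among genes lower in all [S] cells, RAB23 and ZNF224 had the largest differences, -3.35 and -3.12, at medians of 12.05 and 10.7 CPM in [N], and both were named after their values were seen. Their highest [S] cells were at 4.54 and 2.97 CPM, and each was detected in 5 of 9 [S] cells. In the p53+/+ line the differences were -2.72 for RAB23 and 0.89 for ZNF224.

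SKP2, the F-box protein that marks the CDK inhibitor p27 for degradation, and RFC5, a subunit of the clamp loader of DNA replication, were also lower in every [S] cell. SKP2 was at 15.8 CPM in [S] (0 to 41.1) against 61 CPM in [N] (44.4 to 113.5). RFC5 was at 57.4 CPM in [S] (1.07 to 121.1) against 177 CPM in [N] (129.2 to 222). Their differences were -1.88 and -1.61, beside -1.92 and -2.71 in the p53+/+ line.

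GFM1 and METTL15 both act in the mitochondrial ribosome, GFM1 as an elongation factor and METTL15 as a methyltransferase of the small-subunit rRNA. GFM1 was at 18.6 CPM in [S] (0.14 to 62.1) against 102.3 CPM in [N] (63.8 to 126.4), a difference of -2.40 beside -0.13 in the p53+/+ line. METTL15 was at 10.3 CPM in [S] (0.116 to 19.6) against 40.9 CPM in [N] (19.7 to 45.8), a difference of -1.89 beside -1.49 in the p53+/+ line. Its highest [S] cell and its lowest [N] cell almost touched.

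The other named genes of this kind were spread over vesicle traffic, RNA decay and metabolism. RAB18, a small GTPase of lipid droplets and the endoplasmic reticulum, was at 87.3 CPM in [S] (10.05 to 120.9) against 237 CPM in [N] (172 to 318). SNX10, a sorting nexin of endosomes, was at 27.7 CPM in [S] (1.6 to 52.9) against 83.9 CPM in [N] (64.8 to 131). EXOSC3, a subunit of the RNA exosome, was at 62.3 CPM in [S] (0 to 112.9) against 169 CPM in [N] (141 to 190.4), and was detected in 8 of 9 [S] cells. RPE, an enzyme of the pentose phosphate pathway, had a difference of -1.52, IMPA1, an inositol monophosphatase, one of -1.40, RABL3 one of -1.58 and TSNAX, a partner of translin, one of -1.50. In the p53+/+ line the difference was -0.07 for TSNAX and -0.58 for RAB18. It was past 2-fold there for RABL3 (-2.23), IMPA1 (-1.36), EXOSC3 (-1.16), SNX10 (-1.11) and RPE (-1.08).

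Gene lists gave the broader pattern. For each list the median difference over its measured genes is given, with the number past 2-fold in each direction, to be read against 6.18% higher, 13.8% lower and a median of -0.21 over all genes. The level of a list is the mean log2(CPM + 1) over its measured genes in a cell.

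**Figure D3:**
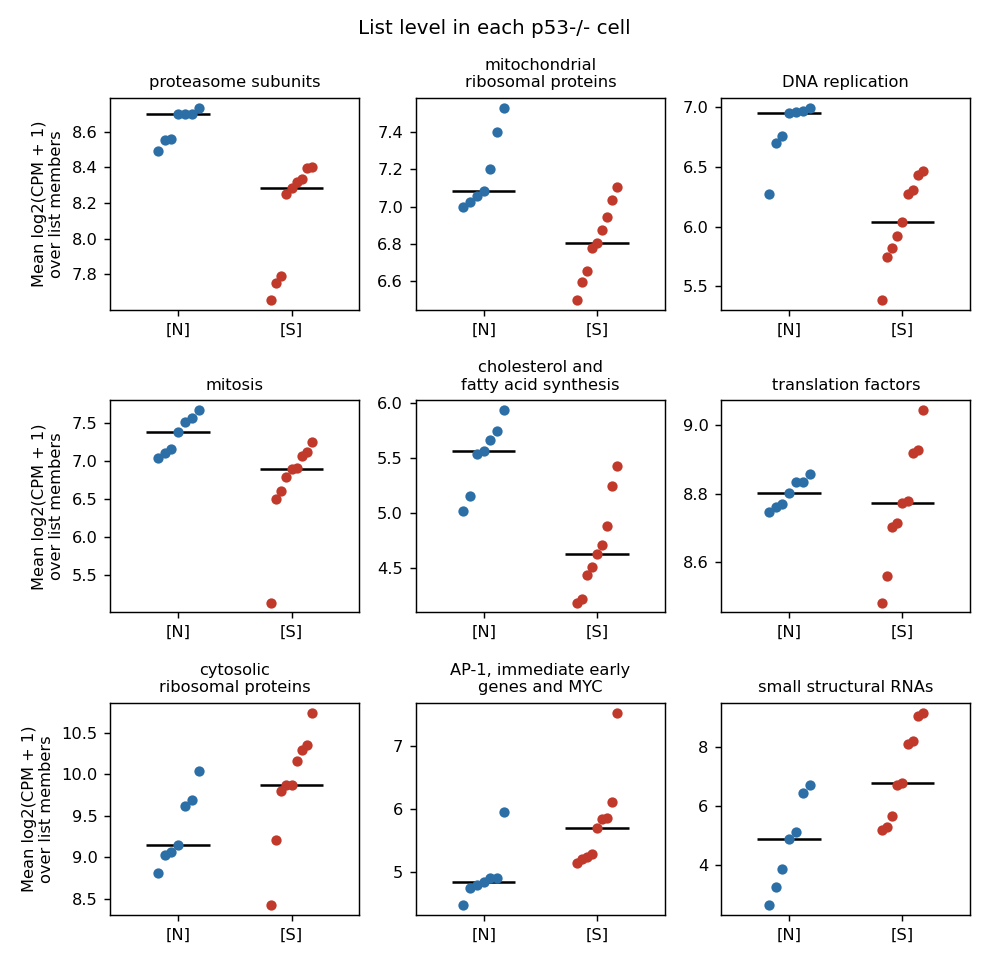
Level of 9 gene lists in each p53-/- cell, as mean log2(CPM + 1) over the list, with 7 [N] cells in blue, 9 [S] cells in red and a bar at each median. Proteasome subunits are the list whose stages do not overlap, with [S] cells up to 8.40 and [N] cells from 8.49.

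Small structural RNAs were the list that was highest in [S]. The list had 6 of 19 genes measured, and all 6 were higher past 2-fold, with a median difference of 2.43. The mean CPM that decides which genes are measured includes the [S] cells, so a member low in [N] can pass through them. Without that filter the median of the list was 0. RN7SL1 and RN7SL2 encode the RNA of the signal recognition particle, which RNA polymerase III transcribes. RN7SL2 was at 1611 CPM in [S] (92.4 to 8558) against 222 CPM in [N] (18.5 to 632), so that 5 [S] cells lay above all [N] cells and 4 within their range. Its difference was 2.85, and 1.35 without the cells with few detected genes. RN7SL1 was at 1522 CPM in [S] (219.9 to 7237) against 237 CPM in [N] (31.8 to 618), and RN7SK, a regulator of transcription elongation, at 7.44 CPM in [S] (2.07 to 18) against 0.861 CPM in [N] (0.201 to 13.4). RN7SL1 and RN7SL2 are near-identical copies, so the split of reads between them is uncertain. RNA45SN5, the long precursor of the nuclear rRNAs, which the list also holds, was at 77.7 CPM in [S] (2.71 to 268) against 8.82 CPM in [N] (2.35 to 51.1). List levels overlapped between the stages, from 5.18 to 9.18 in [S] and from 2.62 to 6.71 in [N].

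Cytosolic ribosomal proteins, which form the translating ribosome together with rRNA, all leaned the same way. All 78 measured genes had a difference above 0, with a median of 0.73, and 20 were higher past 2-fold (25.6%) while 0 were lower. RPL12 was at 1348 CPM in [S] (148 to 1757) against 379 CPM in [N] (285 to 743), a difference of 1.83, and 7 of its 9 [S] cells were above every [N] cell. RPS12, a gene the study names for the budding stages, was at 951 CPM in [S] (207 to 1680.0) against 268 CPM in [N] (192 to 646). RPL39 had a difference of 1.65 and RPS29 one of 1.63. The levels of the list overlapped, from 8.42 in cell 6 to 10.7 in cell 1 of [S], against 8.81 to 10.0 in [N], and 4 [S] cells lay above all [N] cells. The median was 0.74 without the 4 cells with few detected genes, and 0.41 without the 2 [N] cells of name prefix 1115. Reads of these genes can also fall on their processed pseudogenes, so single members are uncertain.

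The other parts of the protein synthesis machinery did not share the direction of the ribosomal proteins. Translation factors had a median difference of 0.05 over 41 genes, with 0 higher and 3 lower past 2-fold. EIF2S1, the alpha subunit of the initiation factor that stress kinases phosphorylate, was at 254 CPM in [S] (86.7 to 410.2) against 554 CPM in [N] (482 to 709.6), with every [S] cell below every [N] cell. EIF4E, the cap-binding protein, was at 187 CPM in [S] (86.3 to 394) against 445 CPM in [N] (329.9 to 491), with 8 of 9 [S] cells below every [N] cell, and PABPC1, the poly(A)-binding protein, had a difference of 0.95. Ribosome biogenesis genes had a median of -0.22 over 54 genes, with 0 higher and 6 lower. Within that list POLR1B, a subunit of RNA polymerase I, had a difference of -1.44 and POLR1A, its largest subunit, one of 0.86. Mitochondrial ribosomal proteins had a median of -0.24 over 77 genes, with 0 higher and 6 lower, led by MRPS27 at 54.8 CPM in [S] (36.7 to 164) against 193 CPM in [N] (103.4 to 248), and 7 of 9 [S] cells had a list level below every [N] cell.

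The proteasome, which degrades proteins tagged with ubiquitin, was the list whose levels separated the stages. Its level was 7.65 to 8.40 in [S], with a median of 8.28, and 8.49 to 8.73 in [N], with a median of 8.70. The shift was small for each gene. Of 37 subunits 3 had a difference above 0, the median was -0.44, and 1 was lower past 2-fold. PSMC6, an ATPase of the regulatory particle, was at 118.04 CPM in [S] (46.9 to 181) against 217 CPM in [N] (205 to 259), with no overlap between the cells. PSME3, an activator of the nuclear proteasome, was at 172 CPM in [S] (58.2 to 250.3) against 309.7 CPM in [N] (232 to 322). PSME4, another activator, went the other way at 54 CPM in [S] (27.2 to 161) against 28.3 CPM in [N] (9.67 to 53.4), a difference of 0.91. Cytosolic chaperones had a median of -0.33 over 30 genes, with 1 higher and 1 lower past 2-fold. The higher one was CDC37, the co-chaperone that loads kinases onto HSP90, at 157 CPM in [S] (15.8 to 298) against 68.6 CPM in [N] (46.4 to 98.2).

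Genes of the AP-1 transcription factor and other immediate early genes, which growth signals and stress switch on within minutes, had a median difference of 0.80, with 9 of 30 higher past 2-fold (30.0%) and 1 lower. JUN on chromosome 1 was at 33.7 CPM in [S] (2.83 to 152) against 2.98 CPM in [N] (1.04 to 36.6), a difference of 3.12, and 4 [S] cells lay above all [N] cells. JUND was at 44.8 CPM in [S] (10.6 to 116.6) against 7.43 CPM in [N] (2.5 to 18.8), with 7 [S] cells above all [N] cells. MYC, a driver of growth, was at 179.9 CPM in [S] (55.5 to 701) against 123.7 CPM in [N] (68.6 to 276). SPRY2 and DUSP6, which restrain the ERK pathway, had differences of -1.81 and -0.93, and that of SPRY2 was -1.07 without [S] cell 1, 7, 8 or 9 and 0.21 with summed counts. The level of the list was highest in [S] cell 8, at 7.54, and in [N] cell 4, at 5.95. ATF3, which is also in the list of the unfolded protein and integrated stress response, was at 69.5 CPM in [S] (19.7 to 1232) against 20.1 CPM in [N] (9.42 to 197), and [S] cell 8 alone held 56.9% of its summed CPM in [S]. The stress response list had a median of -0.01 over 36 genes, with 2 higher and 5 lower.

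Long noncoding RNAs had a median of 0.61 over 22 genes, with 3 higher and 0 lower past 2-fold. ZFAS1, SNHG5 and GAS5 host small nucleolar RNAs in their introns. ZFAS1 was at 364 CPM in [S] (126.9 to 668) against 101.2 CPM in [N] (56.5 to 221). SNHG5 was at 76.4 CPM in [S] (40.5 to 211) against 28.6 CPM in [N] (20.4 to 53.5), with 8 of 9 [S] cells above every [N] cell. GAS5 had a difference of 0.91, and UCA1 one of -0.74. That of UCA1 was between -0.054 and -0.012 without [S] cell 1, 2, 4, 6 or 9, -1.11 to -1.15 without [N] cell 1, 5, 6 or 7, 0.19 with summed counts and 1.25 without prefix 0109, so its direction is not settled.

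DNA replication genes were lower. Their median difference was -0.69 over 42 genes, with 0 higher and 9 lower past 2-fold (21.4%), and 6 of 9 [S] cells had a list level below every [N] cell. CDC6, which loads the MCM helicase at origins, was at 83.2 CPM in [S] (42.6 to 349.8) against 252 CPM in [N] (119.02 to 406). UHRF1, which couples DNA methylation to replication, was at 51.1 CPM in [S] (28.7 to 158) against 163 CPM in [N] (83.8 to 276), with 8 [S] cells below every [N] cell. CDC45, part of the active helicase, was at 17 CPM in [S] (0 to 71) against 59.7 CPM in [N] (37.3 to 84.6), and its difference of -1.75 was -0.65 without the cells with few detected genes and -1.10 to -1.13 without any 1 of [S] cells 1, 2, 3, 6 or 9. PCNA, the sliding clamp, was at 441 CPM in [S] (139 to 598) against 559.6 CPM in [N] (385 to 741). The catalytic subunits of DNA polymerases epsilon and alpha had differences of 0.81 for POLE and 0.65 for POLA1. That of POLE was 0.46 without [N] cell 2, 4 or 5 and 0.016 without prefix 0109, and that of POLA1 was 0.38 without [S] cell 2, 3, 4 or 6 and -0.66 with means of log2 values, so POLA1 has no settled direction.

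CCNE2, the cyclin E2 that drives entry into S phase, had the largest difference among the genes of the lists. It was at 0.488 CPM in [S] (0 to 41.7) against 58.5 CPM in [N] (38.6 to 132). In [S] cells 3 and 9 it was within the [N] range at 39.2 and 41.7 CPM, in cell 6 it was at 16.996 CPM, in cell 1 at 4.56 CPM, and in the remaining 5 cells at or under 0.488 CPM, 3 of them at 0. It was detected in 6 of 9 [S] cells (66.7%, exact Clopper-Pearson 95% interval 29.9% to 92.5%) and in all 7 [N] cells. The summed counts were 4096 in [S], or 11.9 CPM with a Poisson interval of 11.5 to 12.2, and 16676 in [N], or 73.9 CPM with an interval of 72.8 to 75.04. These intervals cover counting error only, since PCR reads without molecular identifiers are not independent molecules. Its difference was -5.32 and, in the p53+/+ line, -4.77. CDKN2C, the p18 inhibitor of CDK4 and CDK6, had a difference of -3.24 over all cells, of -0.16 without the cells with few detected genes and of -1.40 to -1.47 without any 1 of [S] cells 1, 3, 6, 8 or 9. CDKN2B, the p15 inhibitor of the same kinases, was at 12.6 CPM in [S] (0 to 30.8) against 3.25 CPM in [N] (0 to 7.54), with 6 [S] cells above all [N] cells. The list of CDK inhibitors and interphase cyclins had a median of -0.29 over 20 genes, with 1 higher and 4 lower.

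Mitosis and cytokinesis genes had a median of -0.51 over 59 genes, with 0 higher and 7 lower past 2-fold (11.9%), near the 13.8% of all genes. CCNB1, cyclin B1, was at 332 CPM in [S] (181 to 905) against 807 CPM in [N] (587 to 1393). BUB1, a kinase of the spindle checkpoint, was at 66.8 CPM in [S] (0.209 to 325) against 196 CPM in [N] (88.7 to 288), so that 2 [S] cells lay above all [N] cells and 6 below them. ANLN, a scaffold of the cleavage furrow, had a difference of -1.43. FOXM1, which switches on mitotic genes, did not share this direction, at 86.7 CPM in [S] (0 to 191) against 48.9 CPM in [N] (36.9 to 67.7). MKI67, the proliferation marker Ki-67, was at 255 CPM in [S] (140.2 to 626) against 187 CPM in [N] (117.4 to 500.5), and its difference of 0.45 was 0.69 without [S] cell 1, 3, 5, 8 or 9 and -0.44 without prefix 0109, so its direction is not settled. In the p53+/+ line the same list had a median of -2.17, with 56 of 59 genes lower past 2-fold, and the replication list one of -1.52 with 31 of 42 lower. No test was made of how the lines differed.

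Genes of homologous recombination and the Fanconi anaemia pathway, which repair double-strand breaks and crosslinks with a sister chromatid as template, had a median of -0.44 over 32 genes, with 0 higher and 7 lower (21.9%). EXO1, an exonuclease that resects ends, was at 21.4 CPM in [S] (3.6 to 78.9) against 69.6 CPM in [N] (20.2 to 104.8). BRCA1 was at 20.3 CPM in [S] (0.372 to 56.3) against 25.4 CPM in [N] (12.3 to 47.4) and BRCA2 at 21.2 CPM in [S] (0 to 74.9) against 19.2 CPM in [N] (9.1 to 46.8), each with stages that overlapped widely. Genes of non-homologous end joining had a median of 0.03 over 14 genes, with 1 higher and 2 lower. XRCC4, which holds ligase IV at the break, was at 42.4 CPM in [S] (0 to 162) against 90.8 CPM in [N] (78.8 to 101.8), with 7 [S] cells below and 1 above all [N] cells, while POLL, a polymerase of that pathway, was at 19.7 CPM in [S] (0 to 76) against 9.24 CPM in [N] (7.64 to 13.7).

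Targets of p53 did not share a direction in cells without p53. Over 33 genes the median was 0.04, with 1 higher and 5 lower past 2-fold, and the same genes in the p53+/+ line had a median of 1.07, with 17 higher and 0 lower. Without the cells with few detected genes the p53-/- median was -0.24. CDKN1A, which encodes the CDK inhibitor p21, was at 109.7 CPM in [S] (3.42 to 367) against 83.8 CPM in [N] (26 to 131), a difference of 0.38 beside 3.13 in the p53+/+ line. It was -0.013 without [S] cell 1, 2, 3 or 6, 0.64 without cell 5 and 0.90 without cell 4, 7, 8 or 9, so its sign is not settled. MDM2, the ubiquitin ligase of p53, was at 50.4 CPM in [S] (0 to 108.1) against 35.3 CPM in [N] (22.9 to 78.4). GDF15, a secreted stress factor, was the member higher past 2-fold, at 59 CPM in [S] (0.11 to 267) against 17.2 CPM in [N] (11.6 to 85). Its difference of 1.72 was 1.15 without [N] cell 1, 5 or 6, 1.05 with summed counts and 0.41 with means of log2 values. CCNG1, cyclin G1, was at 49.8 CPM in [S] (23.6 to 226) against 149 CPM in [N] (98.1 to 207), with 6 of 9 [S] cells below and 1 above every [N] cell, and RRM2B, a subunit of ribonucleotide reductase, had a difference of -1.39. The level of the list was 3.76 to 5.82 in the [S] cells and 4.49 to 5.56 in the [N] cells. Members of the BCL2 family had a median of -0.01 over 15 genes, with 0 higher and 1 lower, and BBC3, the death protein PUMA, was at 5.32 CPM in [S] (0 to 38.5) against 2.44 CPM in [N] (0 to 5.82).

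**Figure D4:**
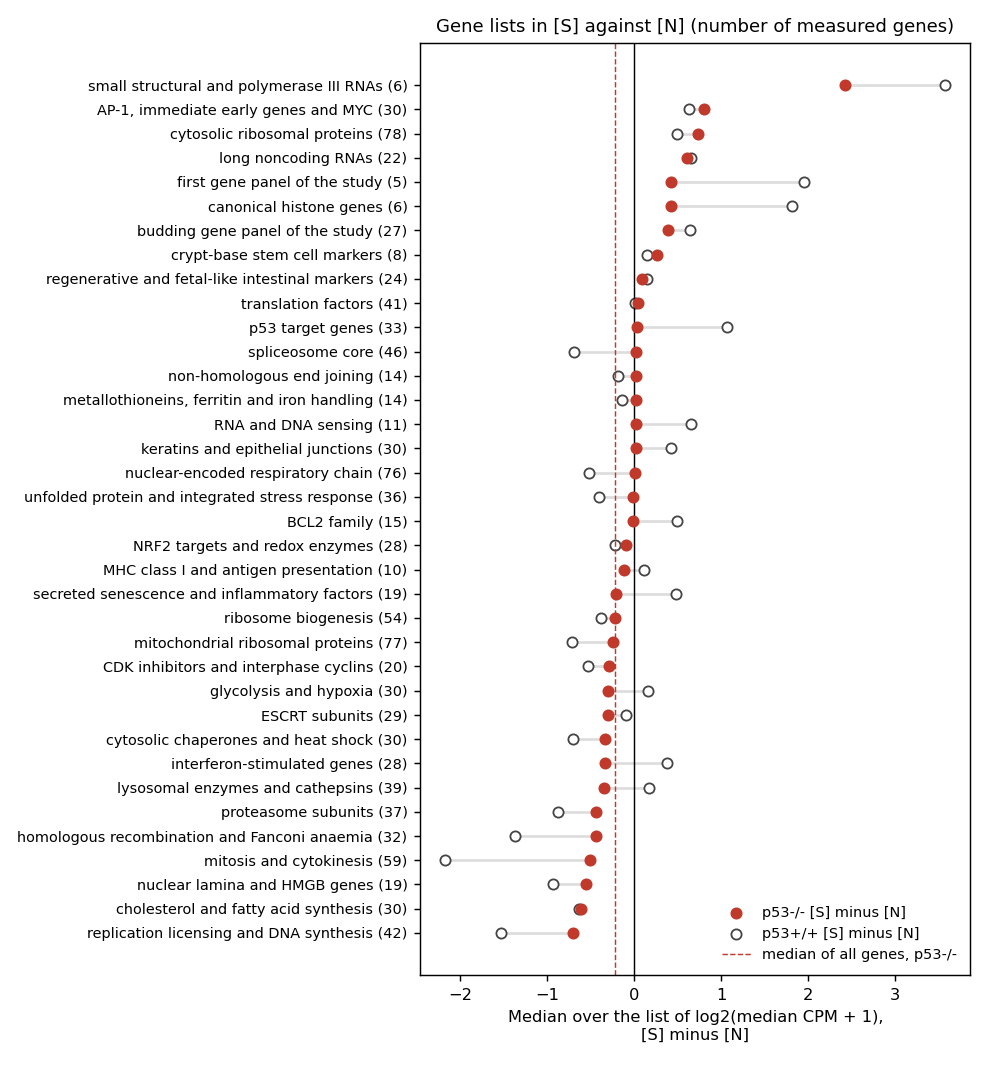
Median difference ([S] minus [N], log2 scale) of each list with at least 5 measured genes, red for the p53-/- line and open circles for the p53+/+ line, with the dashed line at -0.21, the median of all genes in the p53-/- line. The red and open points lie far apart for mitosis (-0.51 and -2.17), DNA replication (-0.69 and -1.52) and p53 targets (0.04 and 1.07), and close together for cholesterol and fatty acid synthesis (-0.61 and -0.63).

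Cholesterol and fatty acid synthesis genes had a median of -0.61 over 30 genes, with 1 higher and 7 lower past 2-fold (23.3%), and 7 of 9 [S] cells had a list level below every [N] cell. INSIG1, which retains the sterol sensor in the endoplasmic reticulum, was at 12 CPM in [S] (0.276 to 38.3) against 45.8 CPM in [N] (15 to 84.3). CYP51A1 was at 16.7 CPM in [S] (1.59 to 303) against 91.2 CPM in [N] (27.6 to 116.2), and 1 cell held 61.9% of its summed CPM in [S]. SREBF1, which encodes a transcription factor of these genes, was at 26.5 CPM in [S] (2.67 to 109.5) against 10.1 CPM in [N] (6.32 to 15.3), higher in the median. Glycolysis and hypoxia genes had a median of -0.30 over 30 genes, with 1 higher and 5 lower, and -0.17 without [S] cell 1. PDK1, a kinase that inhibits pyruvate dehydrogenase, was at 1.03 CPM in [S] (0 to 15.1) against 8.68 CPM in [N] (2.54 to 15.2).

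Lysosomal enzymes had a median of -0.34 over 39 genes, with 3 higher and 4 lower, and -0.54 without [S] cell 4. ESCRT subunits, which cut membrane necks in budding and cytokinesis, had a median of -0.30 over 29 genes, with 3 higher and 3 lower, and -0.16 to -0.12 without [S] cell 4, 5 or 9. GAA, the acid alpha-glucosidase, was at 59.7 CPM in [S] (1.5 to 128.2) against 22 CPM in [N] (6.2 to 33.4). CHMP4B and CHMP4C form filaments at the neck, and they were at 10.7 CPM in [S] (0 to 23.8) against 2.53 CPM in [N] (0.317 to 12.3) and at 21.3 CPM in [S] (7.19 to 47.7) against 8.04 CPM in [N] (5.45 to 18.4). VPS4B, an ATPase that takes the filaments apart, was at 24.6 CPM in [S] (6.81 to 142) against 75 CPM in [N] (58.6 to 121.02). CHMP2A and VPS28, which the study examined in budding cells, had differences of 0.10 and 0.01, and either turned below 0 without single cells, to -0.11 without [N] cell 3, 4 or 7 for CHMP2A and to -0.047 without [S] cell 1, 5, 7 or 9 for VPS28.

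Interferon-stimulated genes had no common direction. The median was -0.34 over 28 genes, with 5 higher and 5 lower past 2-fold (17.9% each), and it was 0.06 without the 4 cells with few detected genes and -0.11 to -0.22 without any 1 of [S] cells 5 to 9 or [N] cells 4, 6 and 7. ISG20, an exonuclease against viral RNA, was at 24.5 CPM in [S] (0 to 104.2) against 4.22 CPM in [N] (1.73 to 5.51), with 6 [S] cells above and 2 below all [N] cells. IFI6 was at 42.4 CPM in [S] (0 to 111.99) against 11.6 CPM in [N] (5.85 to 15.1) and OASL at 16.1 CPM in [S] (0 to 53.5) against 3.02 CPM in [N] (0 to 16.2). PARP9 had a difference of -1.85, and 1 cell held 78% of its summed CPM in [S], so that summed counts gave 0.14. Sensors and adaptors of foreign nucleic acid had a median of 0.02 over 11 genes, with 1 higher and 1 lower. DDX58, the RNA sensor RIG-I, was at 33 CPM in [S] (10.5 to 64.4) against 10.5 CPM in [N] (4.86 to 46.4), where its difference of 1.56 was -0.065 against the 2 [N] cells of prefix 1115 alone, and TANK, an adaptor of the kinase TBK1, at 46 CPM in [S] (4.05 to 83.2) against 94.3 CPM in [N] (71.8 to 117.3). Antigen presentation genes had a median of -0.11 over 10 genes, with 0 past 2-fold in either direction, and between -0.18 and -0.008 without any 1 of [S] cells 5 and 6 and the 7 [N] cells. HLA-B and HLA-C were at differences of 0.76 and 0.91, while PDIA3, which helps load these molecules, was at -0.98. HLA genes are close copies of each other, so the share of reads given to each is uncertain.

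Secreted factors of senescence and inflammation had a median of -0.21 over 19 genes, with 2 higher and 2 lower, and leaving out 1 of [S] cells 1, 2, 3, 4, 6, 7, 8 and 9 or [N] cells 2, 4 and 6 brought it to between -0.14 and 0.097, so its sign is not settled. TIMP2, an inhibitor of matrix proteases, was at 66 CPM in [S] (3.7 to 174) against 17.3 CPM in [N] (11.4 to 57.6). SERPINB2 was at 0 in 5 of 9 [S] cells and reached 131 CPM in cell 3, against 0.238 to 11.1 CPM in [N]. Its difference of -2.26 was -0.60 without any 1 of [S] cells 5 to 9 and 0.15 without the cells with few detected genes. The median of the list was then 0.40.

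Of 13 epithelial markers 11 were measured, with a median difference of -0.17 and 0 higher and 2 lower past 2-fold. The median was -0.07 to -0.055 without [S] cell 2, 4 or 5, and -0.32 without cell 8. Without the 4 [S] cells with few detected genes it was -0.44, with 4 lower past 2-fold. Summed levels of the markers were 3277 to 12345 CPM in [S] and 4691 to 11691 CPM in [N]. Keratins and epithelial junction genes had a median of 0.02 over 30 genes, with 2 higher and 3 lower. KRT8 and KRT18, the keratins of simple epithelia, were at 1787 CPM in [S] (335 to 5336) against 3145 CPM in [N] (1586 to 5513) and at 1704 CPM in [S] (741 to 3444) against 2775 CPM in [N] (1297 to 3538). CDH1, E-cadherin, was lower, at 5.76 CPM in [S] (0 to 48.3) against 35.5 CPM in [N] (12.7 to 57.5), with 6 of 9 [S] cells below every [N] cell. CDX1, an intestinal transcription factor, was at 0 in all 16 cells. Of the markers of other cells, 0 of 10 fibroblast, 0 of 7 endothelial and 0 of 7 erythroid genes were measured, and 1 of 12 leukocyte genes was, CD68. In that order with leukocytes last, their summed levels were 0 to 6.98 CPM, 0 to 6.22 CPM, 0 to 30.6 CPM and 0 to 17.2 CPM in the [S] cells, against 0 to 6.75, 0 to 4.81, 0.167 to 4.57 and 1.84 to 15.4 CPM in [N]. Among them COL1A2, DCN, LUM, PTPRC, CD3E, CDH5 and PECAM1 were at 0 in all 16 cells.

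Stem cell markers of the crypt base had a median of 0.26 over 8 genes, with 0 past 2-fold, which was 0.12 without [S] cell 2, 4, 5 or 6 and 0.40 without cell 8. CD44, a surface marker of colorectal stem-like cells, was at 216 CPM in [S] (89.7 to 365) against 243 CPM in [N] (149 to 451). Regenerative and fetal-like intestinal markers had one of 0.09 over 24 genes, with 1 higher and 2 lower, and ANXA1 was at 878 CPM in [S] (357 to 1388) against 1752 CPM in [N] (1271 to 5019.9). The gene panels that the study drew from these samples had medians of 0.43 over 5 genes, with 2 higher past 2-fold, and 0.39 over 27 genes, with 5 higher, and 0 lower in either. This is not independent evidence because the study chose the panels on these cells, and the copies used here hold fewer genes than the full panels of the study. CST3, a secreted protease inhibitor, was at 142 CPM in [S] (22.5 to 666) against 113.6 CPM in [N] (95.6 to 152). Its difference of 0.32 was -0.064 without prefix 802. SNCG, gamma-synuclein, was at 12.6 CPM in [S] (3.51 to 47.6) against 6.42 CPM in [N] (2.55 to 13.4). Its difference of 0.87 was -0.12 without the [S] cells with few detected genes. Each of these 2 genes kept its sign in 30 of 31 alternative settings. CCDC85B, of the larger panel, was at 149.8 CPM in [S] (9.02 to 375) against 40.3 CPM in [N] (35.3 to 87).

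The respiratory chain encoded in the nucleus had a median of 0.01 over 76 genes, with 0 higher and 1 lower, SDHD, at 139 CPM in [S] (51.1 to 346) against 389.7 CPM in [N] (251 to 516). Of the mitochondrial rRNAs, RNR1 was at 6003 CPM in [S] (674 to 30306) against 3325 CPM in [N] (1104 to 12357). RNR2 was at 21659.7 CPM in [S] (4700.3 to 150394) against 8357 CPM in [N] (5113 to 20698). The median difference over both was 1.11, with 1 of 2 higher past 2-fold. Without name prefix 0109 that median was 0.245. The difference was then -0.35 for RNR1 and 0.84 for RNR2, so the direction of RNR1 is not settled. NRF2 targets had a median of -0.09 over 28 genes, with 0 higher and 1 lower, and metallothionein, ferritin and iron genes one of 0.02 over 14, with 1 higher and 3 lower. MT2A, a metallothionein, was at 1533 CPM in [S] (363 to 6444) against 754 CPM in [N] (474 to 1504). SLC30A1, a zinc exporter, spanned 0.209 to 617 CPM in [S], with 1 cell holding 70.7% of its summed CPM, and 11.8 to 59.4 CPM in [N]. Its difference of -1.65 turned to 0.11 to 0.12 without any 1 of [S] cells 1, 3, 5, 6 or 9, so it has no settled direction. The spliceosome core had a median of 0.03 over 46 genes, with 2 higher and 2 lower.

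Nuclear lamina and HMGB genes had a median of -0.55 over 19 genes, with 0 higher and 3 lower past 2-fold. LMNB1, lamin B1, was at 3.08 CPM in [S] (0 to 21) against 15.9 CPM in [N] (2.85 to 28.4), HMGN2 at 725 CPM in [S] (200.2 to 1790.0) against 1849 CPM in [N] (1235 to 2474) and LBR, the lamin B receptor, at 49.7 CPM in [S] (12.9 to 113.4) against 130.04 CPM in [N] (67.5 to 215). LMNB2 was at 91.2 CPM in [S] (49.9 to 210.5) against 50.4 CPM in [N] (40.01 to 91.3). Without the 2 [N] cells of name prefix 1115 the median was -0.22, without [N] cell 3, 4, 6 or 7 alone it was between -0.29 and -0.156, and without [S] cell 1, 5, 8 or 9 it was -0.36, and it was -0.27 with TMM scaling, so its size is not settled. Canonical histone genes, whose mRNA lacks a poly(A) tail, had 6 of 37 genes measured, with a median of 0.42, 2 higher and 0 lower past 2-fold, and that median was 0.16 to 0.20 without [N] cell 3, 4, 6 or 7, 0.27 without [S] cell 2 and 0.70 to 0.79 without [S] cell 3, 4, 7 or 8.

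The share of cells that detected a gene was lower in [S]. Of the measured genes 9987 were detected in every [N] cell, 5775 in every [S] cell and 5754 in all 16 cells. There were 64 measured genes detected in every [N] cell and at most 4 [S] cells, and 0 in every [S] cell and at most 3 [N] cells. After thinning all cells to 14470778 counts these numbers were 65 and 0. In [S] cell 9, 3262 of the measured genes were at 0, against 58 to 1842 in the other [S] cells and 36 to 199 in [N].

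By chromosome, the median difference ran from -0.50 on chromosome 4 and -0.41 on chromosome 13 to 0.03 on chromosome 19. On chromosome 19, 71 of 618 genes were higher and 52 lower past 2-fold, and on chromosome 4, 7 of 339 were higher and 79 lower. The corresponding medians in the p53+/+ line were -0.59, -0.47 and 0.20. In RNA counts, gene copy number and expression cannot be told apart.

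**Figure D5:**
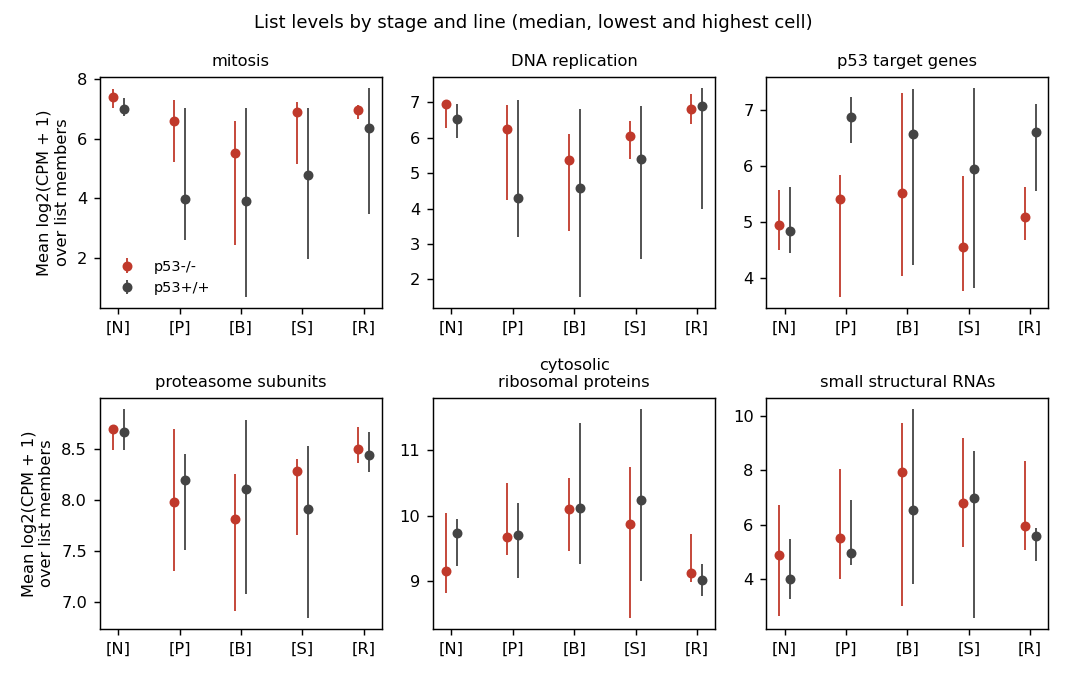
List levels (mean log2(CPM + 1), y axis) at [N], [P], [B], [S] and [R] in the p53-/- line (red) and the p53+/+ line (grey), with the point at the median cell and the bar from the lowest to the highest cell. Mitosis genes in p53-/- cells are at medians of 7.38, 6.60, 5.52, 6.89 and 6.94, and proteasome subunits at 8.70, 7.98, 7.81, 8.28 and 8.50 in the same order.

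The other stages of the line place these values. The pre-budding giant cells [P] and the budding giant cells [B] were the stages before [S], and the repopulating cells [R] came after it. Mitosis genes in p53-/- cells, at a median level of 7.38 in [N], stood at 6.60 before budding, 5.52 during budding, 6.89 in [S] and 6.94 in the repopulated cells. Ribosomal proteins stood at 9.15 in [N], 10.1 in [B], 9.87 in [S] and 9.12 in [R]. For CCNE2 the medians from [N] through [P], [B] and [S] to [R] were 58.5, 28.4, 3.03, 0.488 and 59.7 CPM. EIF2S1 was at 554, 231, 195, 254 and 496 CPM in that order. These are values side by side without a test.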

How the data were processed

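Per the labels and the methods of the study, single HCT116 cells were picked under a microscope, the whole mRNA was amplified as cDNA with no molecular identifiers, and libraries were sequenced, trimmed with fastp, aligned to GRCh38 with HISAT2 and assembled with StringTie. The authors deposited raw read counts per gene with 1 column per cell, and the tool that made the counts is not given in the sources used here. No read was realigned, no doublet caller was run on the picked cells, and no cell was left out.

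Counts were scaled to CPM per cell with Python 3.11.15, pandas 2.3.3 and numpy 2.4.6. A pseudocount of 1 CPM was used for log2 values, and genes with a mean of at least 5 CPM over the 16 cells were kept. Each stage is 1 sample in this design, so no test, SE or p-value was computed. Intervals are exact 95% Clopper-Pearson and Poisson intervals (scipy 1.17.1) and cover counting error only, and a count of 0 was given a limit of 3 counts. Depth was 14470778 to 60732222 counts per cell.

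The members and the gene lists were chosen with earlier results of these data known. RNR1 and RNR2 were added to the mitochondrial list after the names in the table were seen, and the 12000-gene line between cells after their values were. Genes were named by a rule: up to 12 in each direction with the largest difference among non-overlapping genes with a median of at least 20 CPM, no cell above 50% of the summed CPM and no number added to the name, then up to 4 members per list with the largest difference and up to 2 against the direction of the list, then a set of genes that the study or textbooks use. Positions are from RefSeq annotation of GRCh38. Alternatives were TMM scaling (edgeR 4.0.16, factors only), other totals, pseudocounts, filters, summaries and folds, thinning of counts, and leaving out cells or name prefixes. The scripts were tested on simulated data. Some genes that the rule picks are not reported here.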

Additional observations from a re-analysis of the deposited data

Results flagged for a closer look

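In groups of 7 [N] or 9 [S] cells, the gap between the most extreme cell and the nearest other cell was compared with the whole range of the group, and 10 groups, 9.80% of those examined, exceeded the 95% critical value of Dixon. Chance passes about 1 in 20 groups.

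Cell 9 of [S], the cell with the fewest detected genes, gave 4 of the 10. Its level (mean log2(CPM + 1)) was 5.13 for mitosis and cytokinesis against 6.49 to 7.24 in the other [S] cells, 3.08 for lysosomal enzymes against 4.66 to 5.73, and 4.39 for keratins and epithelial junctions against 5.72 to 6.69. MDM2 was at 0 in this cell and at log2 values of 4.28 to 6.77 in the other [S] cells.

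For AP-1 and immediate early genes, [S] cell 8 stood apart at 7.54 against 5.16 to 6.12, and [N] cell 4 at 5.95 against 4.48 to 4.91. Nuclear rRNA made up 2.71% of the counts of [S] cell 1 against 0.0429% to 0.637% in the other [S] cells, and 0.365% in [N] cell 5 against 0.00746% to 0.125% in the other [N] cells. The level of replication genes in [N] cell 5 was 6.28 against 6.70 to 7.00, and its log2 value of ZNF385A was 3.95 against 4.53 to 4.96.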

How the results depend on the processing

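Counts of genes moved most. With a pseudocount of 10 CPM, 172 genes were higher and 512 lower past 2-fold, and without a filter 2388 were lower, where small structural RNAs had a median of 0. With a mean of at least 20 CPM the counts were 304 and 660 and the histone median was -0.37, and at 4-fold 63 and 302. Summed counts gave 985 higher and 705 lower, medians of 0.44 for the BCL2 family, 0.40 for secreted factors, 1.47 for AP-1, -0.20 for the nuclear lamina and 0.19 for translation factors, and differences of 0.14 for PARP9, 2.04 for SERPINB2, 0.39 for CHAC1, 0.21 for SPRY2 and 1.96 for SLC30A1. Means of log2 values gave -0.16 for the spliceosome. Without 1 cell at a time, 565 to 746 genes were higher, 1096 to 1638 lower, 7 to 23 non-overlapping higher and 36 to 64 non-overlapping lower, the lamina median ran from -0.563 to -0.156, that of the spliceosome from -0.146 to 0.073 and SLC30A1 from -1.74 to 0.124. Without the cells of name prefix 0109, 1153 genes were higher, and 211 and 436 did not overlap, with 0.34 for the BCL2 family, -0.55 for chaperones, -0.12 for the lamina, -0.065 for DDX58, 0.33 for VEGFA and -0.031 for PPP1R15A. Without prefix 1115, 75 were lower without overlap, with -0.22 for the lamina, -0.28 for the spliceosome, -0.22 for HIST1H3B and 0.64 for FANCM. Without prefix 802 the non-overlapping counts were 21 and 99, with 0.15 for SERPINB2 and 0.075 for VEGFA. Without prefix 808 they were 32 and 78, with -0.19 for the lamina and 0.15 for SERPINB2. Without the 4 [S] cells with few detected genes, a setting chosen after seeing the data, they were 73 and 175, with 0.15 for SERPINB2, 0.35 for VEGFA, 1.03 for CHAC1 and 0.90 for SLC30A1. The causes were not tested. Of the list medians under all settings, 1159 moved by less than the pooled SD between cells of the list's level, and 19 moved by more. The sign of a median could change within that limit. Out of 31 settings, p53 targets kept their sign in 13 and non-homologous end joining in 15. No paired analysis was possible because replicate numbers only name cells in order and the results come from no test.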
